A study of Mus musculus with 12 samples.

Results

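Ddx58, Irf5 and Trim14 are 3 genes of antiviral sensing, and they are described here as 3 named rows out of the 53546 gene symbols counted in mouse serum. They were chosen by name. All 3 rows were found under those symbols, and all 3 passed the filter on low counts. Total RNA was sequenced from serum, the fluid left after blood clots, of mice in 2 groups, one normal and one with colorectal cancer. The labels give 6 biological replicates per group and no treatment, allele or time point. The sources used here do not give the strain, age and sex of the mice or how the tumours arose. For colorectal cancer, the replicate 5 and replicate 6 files matched in every row, and the header of both names replicate 6, so they were counted as 1 library. This left 6 normal and 5 colorectal cancer libraries.

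RIG-I, the protein of Ddx58, is a cytosolic helicase that binds short viral RNA with a triphosphate end. It signals through the mitochondrial adaptor MAVS to the kinases TBK1 and IKK-epsilon, and these switch on type I interferon genes. TRIM14 is a tripartite-motif protein without the RING domain of its relatives and sits with MAVS at the mitochondrial surface as a platform for that signal. IRF5 is a transcription factor of the interferon regulatory family, best known downstream of endosomal Toll-like receptors and MyD88 in monocytes, dendritic cells and B cells. Ddx58 and Trim14 are themselves induced by interferon in many cell types.

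The positions are those of GENCODE release M21 on mm10, the build named in the submitters' processing notes, since the files carry symbols alone. Ddx58 lies on the minus strand of chromosome 4, from 40203773 to 40239828, with 18 exonic blocks that cover 7050 bases. Trim14 lies on the same strand of that chromosome, from 46493781 to 46536141, with 9 blocks and 4338 bases. Irf5 lies on the plus strand of chromosome 6, from 29526625 to 29541871, with 13 blocks and 2905 bases. No other annotated gene overlaps Ddx58. Trim14 shares 1356 exonic bases (31.3% of its own) with Nans, a sialic acid synthase gene on the opposite strand. Irf5 shares 411 exonic bases (14.1%) with Tnpo3, a nuclear import receptor gene, also on the opposite strand. The sources used here do not say whether counting used strand, so reads from these shared exons cannot be told apart.

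The stretches before the starts of Ddx58 and Irf5 are shown because the first is a gene that interferon induces through interferon regulatory factors, the family to which IRF5 belongs. RefSeq's promoter table (GRCm38.p6) matched 2 of the 3 genes, Ddx58 and Irf5. Each line gives the 250 bases before the start, 5′ to 3′ on the gene's own strand, for Ddx58 at chr4:40239826-40240075 (minus) and for Irf5 at chr6:29526375-29526624 (plus). Capitals mark AANNGAAA, a core that interferon regulatory factors bind, in Ddx58, and GGGCGG, the GC box, in Irf5. Both motifs and a longer interferon response core (GAAA, any 2 bases, GAAA) were searched on both strands, and they were chosen after the sequences had been read.
Ddx58: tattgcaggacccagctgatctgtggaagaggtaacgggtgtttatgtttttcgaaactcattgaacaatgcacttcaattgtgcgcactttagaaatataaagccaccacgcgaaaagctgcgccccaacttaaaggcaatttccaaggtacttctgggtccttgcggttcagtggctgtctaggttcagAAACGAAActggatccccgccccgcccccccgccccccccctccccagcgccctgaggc
Irf5: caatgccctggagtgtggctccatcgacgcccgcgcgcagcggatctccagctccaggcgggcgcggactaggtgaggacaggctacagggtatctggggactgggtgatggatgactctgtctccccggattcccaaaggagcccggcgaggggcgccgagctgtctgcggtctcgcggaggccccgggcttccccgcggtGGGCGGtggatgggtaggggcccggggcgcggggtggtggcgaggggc
AANNGAAA matched once in Ddx58, 59 to 52 bases before the start, and not in the Irf5 window; 21.3% of 32851 promoters of this length hold a match. GGGCGG matched 1 time in Irf5 and 3 times in Ddx58 (there on the other strand, 2 of the matches sharing a base), and 32.7% of promoters hold it. The longer core, whose matches all contain an AANNGAAA match, was in neither window and in 2.98% of promoters. The Irf5 stretch was 72.0% G and C and that of Ddx58 53.6%, beside a median of 52.4% over all promoters. These are matches of letters, and no binding was measured.

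The libraries held 2889205 to 20774889 counts in total. In 6 of them, 2 normal and 4 colorectal cancer, the row named Olfr648 alone took 7969078 to 17324370 counts, and without that row totals ran from 2885958 to 7033966. All values below are CPM, that is counts relative to the library's total, scaled with TMM factors, which set libraries on a scale where most rows do not move, unless another scale is named. The row names carry a limit: 42.2% of 21294 protein-coding rows were at 0 in every library, among them many genes that most cells use. In the first 60 Mb of chromosome 4, which hold Ddx58 and Trim14, 10.5% of 324 protein-coding rows were at 0, and within 1 Mb of Irf5 2 of 27 were. Whether each row measures the gene of its name was not tested.

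All 3 genes were well covered in every library. The Ddx58 row held 1156 to 4589 counts per library, the Irf5 row 1472 to 5278 and the Trim14 row 395 to 1533. Per kilobase of exon, Irf5 was the most abundant, at 121 ± 26.9 CPM per kb in normal and 115 ± 6.54 in cancer serum (SD, n = 6 and 5). Ddx58 followed at 35.6 ± 2.81 and 39.9 ± 2.14 CPM per kb, and Trim14 at 22.8 ± 2.61 and 21.1 ± 1.65. The order Irf5, Ddx58, Trim14 held in 11 of 11 libraries. All 3 stood high among the 9253 tested rows with a known position: 1.65% of these rows had a higher mean level per kilobase than Irf5, 5.38% than Ddx58 and 8.95% than Trim14.

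Setting serum of tumour-bearing mice against normal serum asks whether transcripts of these sensing genes differ in animals that carry the tumour. None of the 3 passed the test, where 2.02% of 9565 rows did, 0.565% higher and 1.45% lower in colorectal cancer (two-sided quasi-likelihood test of edgeR, p adjusted by Benjamini-Hochberg over all rows, at 0.05). By DESeq2 0 of 3 passed as well, where 161 rows were called higher and 221 lower over all rows. At an unadjusted p under 0.05, 0 of 3 passed by edgeR, where 11.4% of all rows did, and 1, Ddx58, by DESeq2, where 6.41% of 21180 rows did. In none of the 3 were the groups fully apart, while 3.64% of all rows had groups that did not overlap. In such bulk samples, the number of cells that gave RNA and the amount that each gave cannot be told apart.

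Ddx58, the sensor, stood at 303, 276, 271, 267 and 291 CPM in colorectal cancer replicates 1, 2, 3, 4 and 6. In normal serum it ran from 232 to 282 CPM, with a median of 242. Normal replicates 4 and 5, at 282 and 269 CPM, reached into the colorectal cancer range, and the other 4 normal libraries lay below it. The group means were 251 ± 19.8 and 282 ± 15.1 CPM (SD, n = 6 and 5). The fold of colorectal cancer over normal was 1.12 with a 95% interval from 0.999 to 1.26 (log2 fold change 0.17, SE 0.08). Its adjusted p in edgeR was 0.446. This was among the most precisely measured rows of the series: 0.376% of tested rows had a smaller standard error.

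Irf5, the transcription factor, stood at 322, 317, 366, 335 and 334 CPM in colorectal cancer replicates 1, 2, 3, 4 and 6. In normal serum it ran from 291 to 482 CPM, with a median of 311. The colorectal cancer libraries all lay inside the normal range, and 2 normal libraries, replicate 4 at 482 CPM and replicate 3 at 410, lay above all others. The means were 350.2 ± 78.3 and 335 ± 19.0 CPM (SD, n = 6 and 5), a fold of 0.957 with a 95% interval from 0.783 to 1.17 (edgeR adjusted p = 0.939). The direction rested on normal replicate 4: without it the log2 fold change went from -0.06 to 0.046 (SE 0.10; adjusted p = 0.927 by edgeR).

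Trim14, the platform protein's gene, stood at 87.1, 92.2, 82.4, 101 and 94.5 CPM in colorectal cancer replicates 1, 2, 3, 4 and 6. In normal serum it ran from 79.6 to 110.2 CPM, with a median of 99.2. Normal replicate 4, the highest library for Irf5, was the lowest of all 11 for Trim14. The means were 98.8 ± 11.3 and 91.5 ± 7.14 CPM (SD, n = 6 and 5), a fold of 0.925 with a 95% interval from 0.797 to 1.07 (edgeR adjusted p = 0.806).

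**Figure D1:**
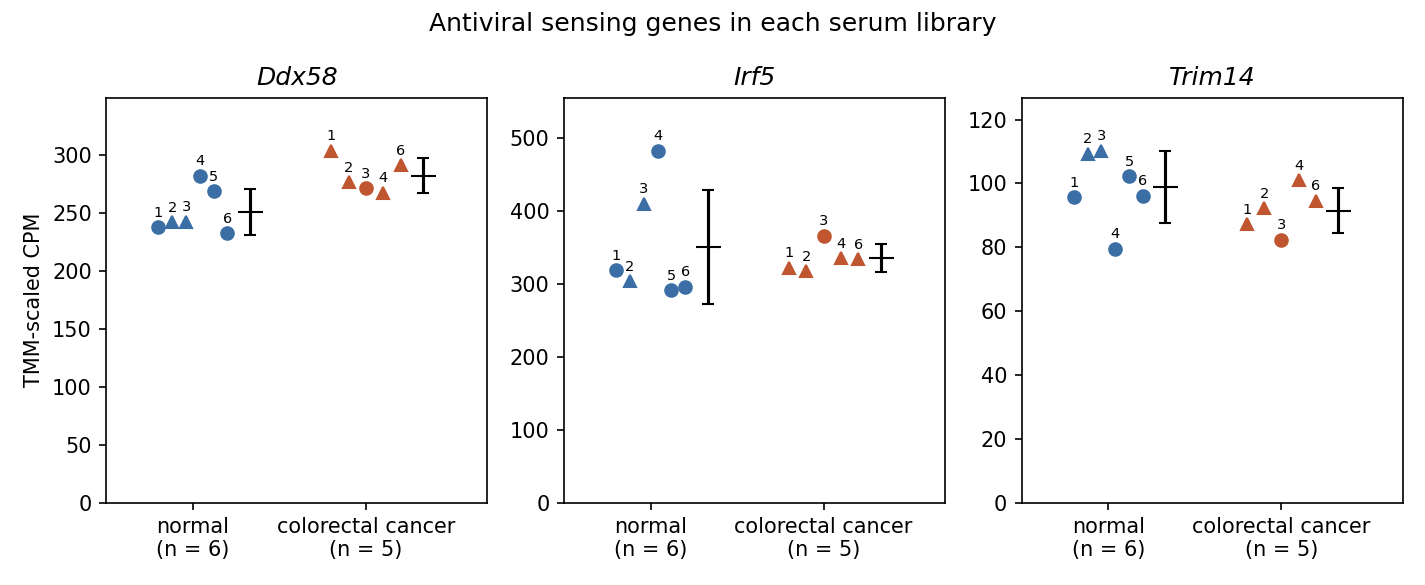
TMM-scaled CPM (vertical axis, linear from 0) of Ddx58, Irf5 and Trim14 in each normal (blue) and colorectal cancer (orange) library, numbered by replicate, with triangles for libraries with high Olfr648 counts and bars for the mean ± SD. The groups overlap for all 3 genes, and normal replicate 4 is the highest point for Irf5 at 482 CPM and the lowest for Trim14 at 79.6 CPM.

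The spread between normal libraries was widest for Irf5. Its coefficient of variation was 22.3% in normal serum and 5.67% in colorectal cancer, where counting error alone gives 2.25% and 1.60%. For Ddx58 the same values were 7.89% and 5.35% (counting error 2.64% and 1.75%), and for Trim14 11.4% and 7.81% (counting error 4.24% and 3.10%). Whether the spread itself differs between the groups was not tested.

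The scale moved all 3 values, and between the TMM scale and the next one the sign changed for Irf5 and Trim14 but not for Ddx58. The Olfr648 row was left out and libraries were divided by their remaining totals. Ddx58 then had 437 ± 61.4 CPM in the normal and 643 ± 39.0 in the colorectal cancer libraries. Its log2 fold change was then 0.56 (SE 0.11; adjusted p = 0.00602 by edgeR), on a scale where 18.2% of 8134 rows were called, 17.0% of all as higher. Irf5 and Trim14 stood at 0.33 and 0.29 on that scale and did not pass (adjusted p = 0.106 and 0.134 by edgeR). The median of all rows was 0.43 there, against 0.04 on the TMM scale. Relative to that median, Ddx58 differed by 0.14, Irf5 by -0.09 and Trim14 by -0.14 on the log2 scale, and on the TMM scale by 0.13, -0.10 and -0.15. With totals that include the Olfr648 row and no TMM factors, the value of Ddx58 was -0.049 (SE 0.66; adjusted p = 1.0 by edgeR). That SE is too wide to give a direction.

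**Figure D2:**
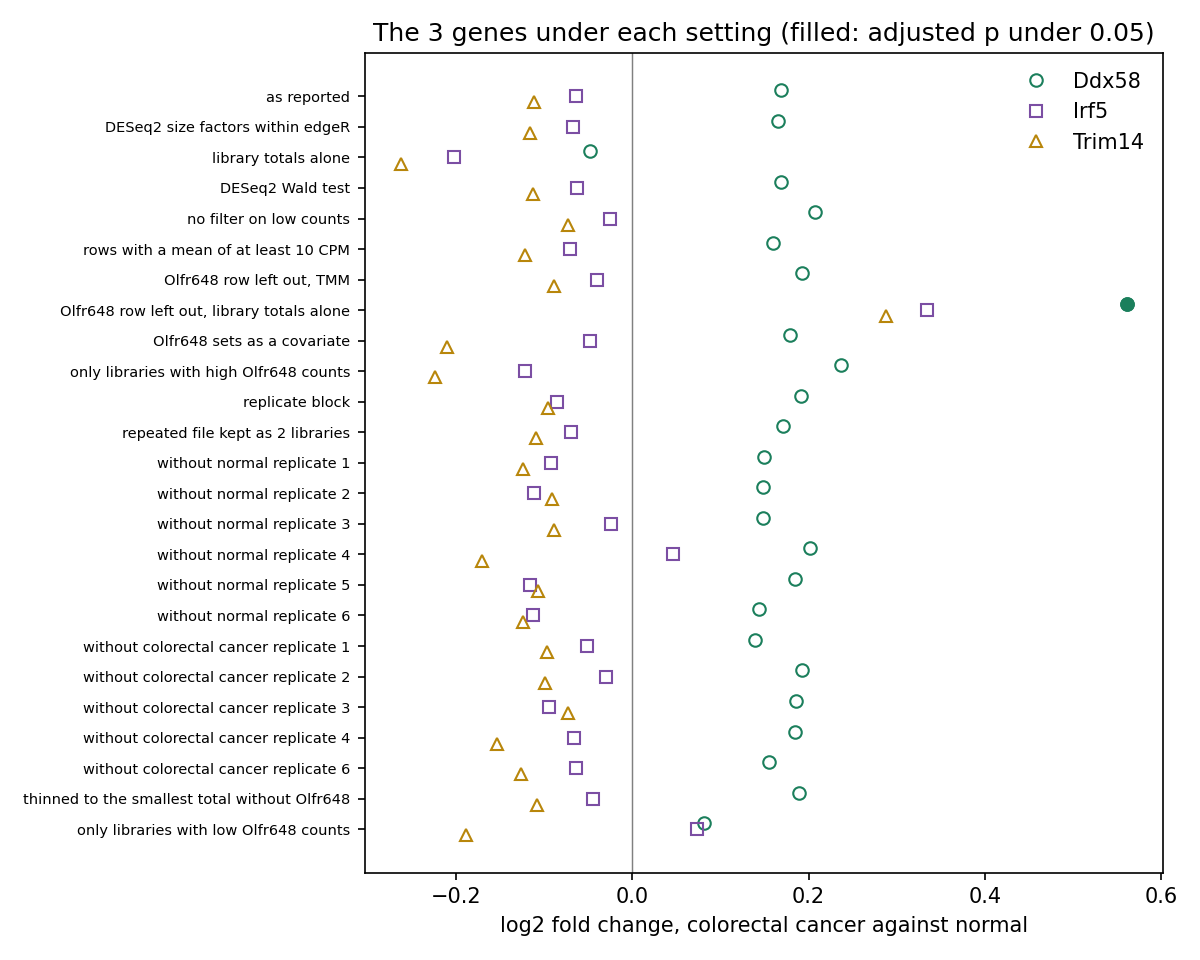
Log2 fold change of colorectal cancer against normal (horizontal axis) for Ddx58 (circles), Irf5 (squares) and Trim14 (triangles) under each setting (rows), filled where the adjusted p was under 0.05. A single filled point, Ddx58 at 0.56, belongs to the setting with the Olfr648 row left out and totals alone, where all 3 genes lie to the right of 0.

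The split by Olfr648 counts was then taken into account. Among the high libraries, Ddx58 stood at 242 ± 0.396 CPM in normal and 284 ± 16.0 in cancer serum (SD, n = 2 and 4), and Trim14 at 109.7 ± 0.664 and 93.7 ± 5.79. Irf5 stood at 357 ± 75.1 and 327 ± 8.70 there. Among the low libraries, 4 normal and 1 colorectal cancer, the means for Ddx58 were 255 and 271 CPM, for Irf5 347 and 366, and for Trim14 93.4 and 82.4. By these means Ddx58 was higher and Trim14 lower in colorectal cancer in both sets, while Irf5 was lower in the first and higher in the second. In the low set the directions rest on 1 colorectal cancer library. It lay inside the range of the normal libraries of that set for Ddx58 (232 to 282 CPM), Irf5 (291 to 482) and Trim14 (79.6 to 102). With the split as a covariate the log2 fold changes were 0.18 (Ddx58), -0.05 (Irf5) and -0.21 (Trim14), none of which passed (adjusted p = 0.604, 0.969 and 0.547 by edgeR).

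Ratios of 2 genes within a library do not depend on how libraries are scaled. The ratio of Ddx58 to Trim14 counts was 2.48, 2.21, 2.20, 3.54, 2.63 and 2.42 in normal replicates 1 to 6, and 3.48, 2.99, 3.29, 2.64 and 3.08 in colorectal cancer replicates 1, 2, 3, 4 and 6. All 5 colorectal cancer libraries lay above the normal ones except replicate 4, at 3.54. The mean log2 ratio went from 1.35 ± 0.25 to 1.62 ± 0.15 (SD, n = 6 and 5), a difference of 0.28 that did not pass (exact permutation p = 0.0693, two-sided, from 462 splits; adjusted p = 0.208 for 3 ratios). Normal replicate 4 was the only normal library to overlap, so leaving it out sets the groups apart by that choice. The difference was then 0.37 (exact permutation p = 0.00794, the smallest that 5 against 5 libraries allow, adjusted p = 0.0238). The difference passed in this 1 of 16 alternative settings, and p was not adjusted for the choice of library. Within the 6 libraries with high Olfr648 counts it was 0.46 (exact permutation p = 0.0667, the smallest that 15 splits allow, adjusted p = 0.1).

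The other ratios overlapped more. The log2 ratio of Ddx58 to Irf5 was -0.46 ± 0.26 in normal serum and -0.25 ± 0.13 in colorectal cancer (exact permutation p = 0.156, adjusted p = 0.234, n = 6 and 5). That of Irf5 to Trim14 was 1.81 ± 0.42 and 1.87 ± 0.17 (exact permutation p = 0.771, adjusted p = 0.771). In normal replicate 4 the Irf5 row held 6.06 times the counts of Trim14, while in the other 10 libraries this ratio lay between 2.78 and 4.45.

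**Figure D3:**
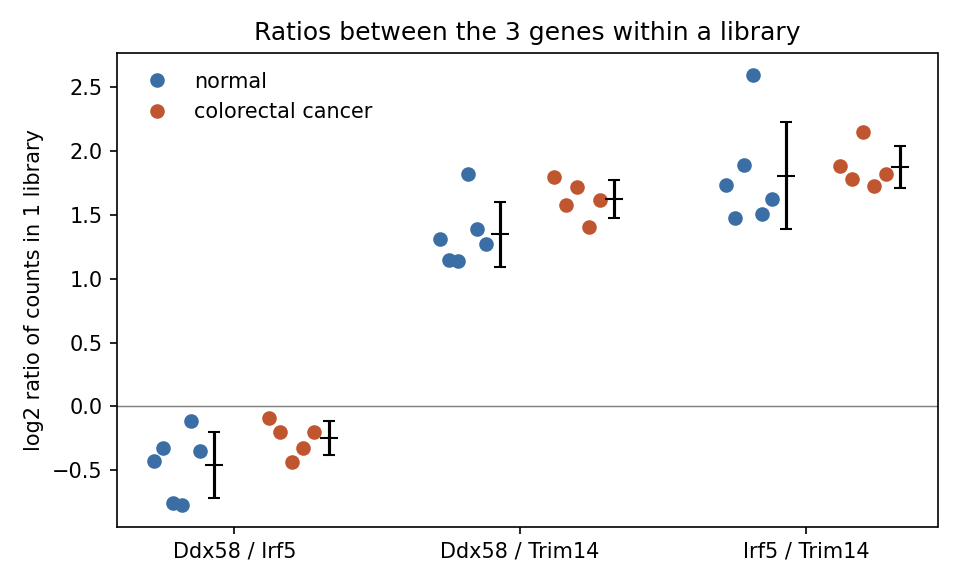
Log2 ratio of the counts of 2 genes in the same library (vertical axis) for the 3 pairs, as points per normal (blue, n = 6) and colorectal cancer (orange, n = 5) library with mean ± SD bars. For Ddx58 over Trim14 a single normal library, replicate 4 at 1.82, lies among or above the colorectal cancer points, which run from 1.40 to 1.80.

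The rest of the antiviral pathway was read through 8 lists with 146 distinct gene names, of which 142 were found in the files. Of these, 52 were at 0 in all 11 libraries, 40 were above 0 but too low to test, and 50 were tested, the 3 genes included. None of the 50 was higher or lower by edgeR at an adjusted p of 0.05, where 2.02% of all tested rows were called. None of the 50 passed by DESeq2 either, where 161 rows were called higher and 221 lower over all rows. In none of the 50 were the groups apart, while 3.64% of all tested rows had groups that did not overlap. At an unadjusted p under 0.05 by edgeR, 4 of the 50 were higher and 1 lower, where 5.72% and 5.65% of all rows were. The median log2 fold change of the 50 was 0.10, beside 0.04 over all tested rows. With the Olfr648 row left out and totals alone, 10 of 47 tested listed rows (21.3%) were called higher and 0 lower, where 17.0% of 8134 rows were called higher.

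Among sensors, 7 of 18 rows were tested and 9 were at 0 throughout, among them the endosomal Toll-like receptors Tlr3, Tlr7, Tlr8 and Tlr9, the RNA-activated kinase Eif2ak2 and the DNA sensor Cgas. Ifih1, the MDA5 helicase next of kin to Ddx58, had 25 counts in all. Dhx58, the LGP2 helicase that completes the family, had 22.8 CPM in normal and 21.0 in cancer serum. Oas3, an oligoadenylate synthetase that activates RNase L, had 37.1 and 57.2 CPM (unadjusted p = 0.0269, adjusted p = 0.325 by edgeR).

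Among cofactors of the sensors, 8 of 17 rows were tested. Zc3hav1, the zinc finger antiviral protein, had 25.3 CPM in normal and 22.8 in cancer serum. The ubiquitin ligases that activate RIG-I were low, with Trim25 at 6.13 and 4.37 CPM and Rnf135 at 2.84 and 2.82. A separate list took TRIM genes of chromosome 4. Beside Trim14 it held Trim62 at 5.97 and 6.55 CPM and Trim63, a muscle ligase, at 5.12 and 5.80, while Trim32 was at 0.

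Among adaptors and kinases, 13 of 25 rows were tested, and the row of the RIG-I adaptor Mavs held 54 counts in all, too few to test. Myd88, the adaptor above IRF5, was at 0, as were Irak1, Irak4 and Traf6. Ikbke, the gene of IKK-epsilon, had 89.9 CPM in normal and 96.2 in cancer serum. Ticam1, the adaptor of Tlr3, had 77.5 and 78.7 CPM. Tbk1 had 40.7 and 52.4 CPM (unadjusted p = 0.0177, adjusted p = 0.268 by edgeR).

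Among transcription factors, 7 of 19 rows were tested. Of the other interferon regulatory factors, Irf1 had 1.66 and 2.17 CPM, Irf9 was at 0, and Irf3, Irf7 and Irf8 had 4, 64 and 2 counts over all libraries. Stat2, which carries the interferon signal to the nucleus, had 251 ± 20.8 CPM in normal mice and 246 ± 8.13 in mice with cancer (SD, n = 6 and 5), and it did not pass the test.

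None of the 20 interferon genes was tested, 14 were at 0, and the list summed to at most 1.53 CPM in any library. Of the receptor and its kinases, Ifnar1 and Ifnar2 were at 0, Tyk2 had 24.6 and 25.4 CPM in normal serum and colorectal cancer, and Socs1, an inhibitor of the signal, 8.47 and 6.29. Of 36 interferon-stimulated genes 12 were tested. Bst2, the tetherin gene, had 50.05 and 57.6 CPM. The unadjusted test at 0.05 took Ifit1 (0.679 and 2.20 CPM) and Oas2 (4.21 and 7.48) as higher and Ifit2 (25.2 and 15.5) as lower, and with adjustment over all rows none passed (adjusted p = 0.133, 0.425 and 0.310 by edgeR). Ifit1, Oas2, Oas3, Tbk1 and Ifit2 were named after their values were seen.

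**Figure D4:**
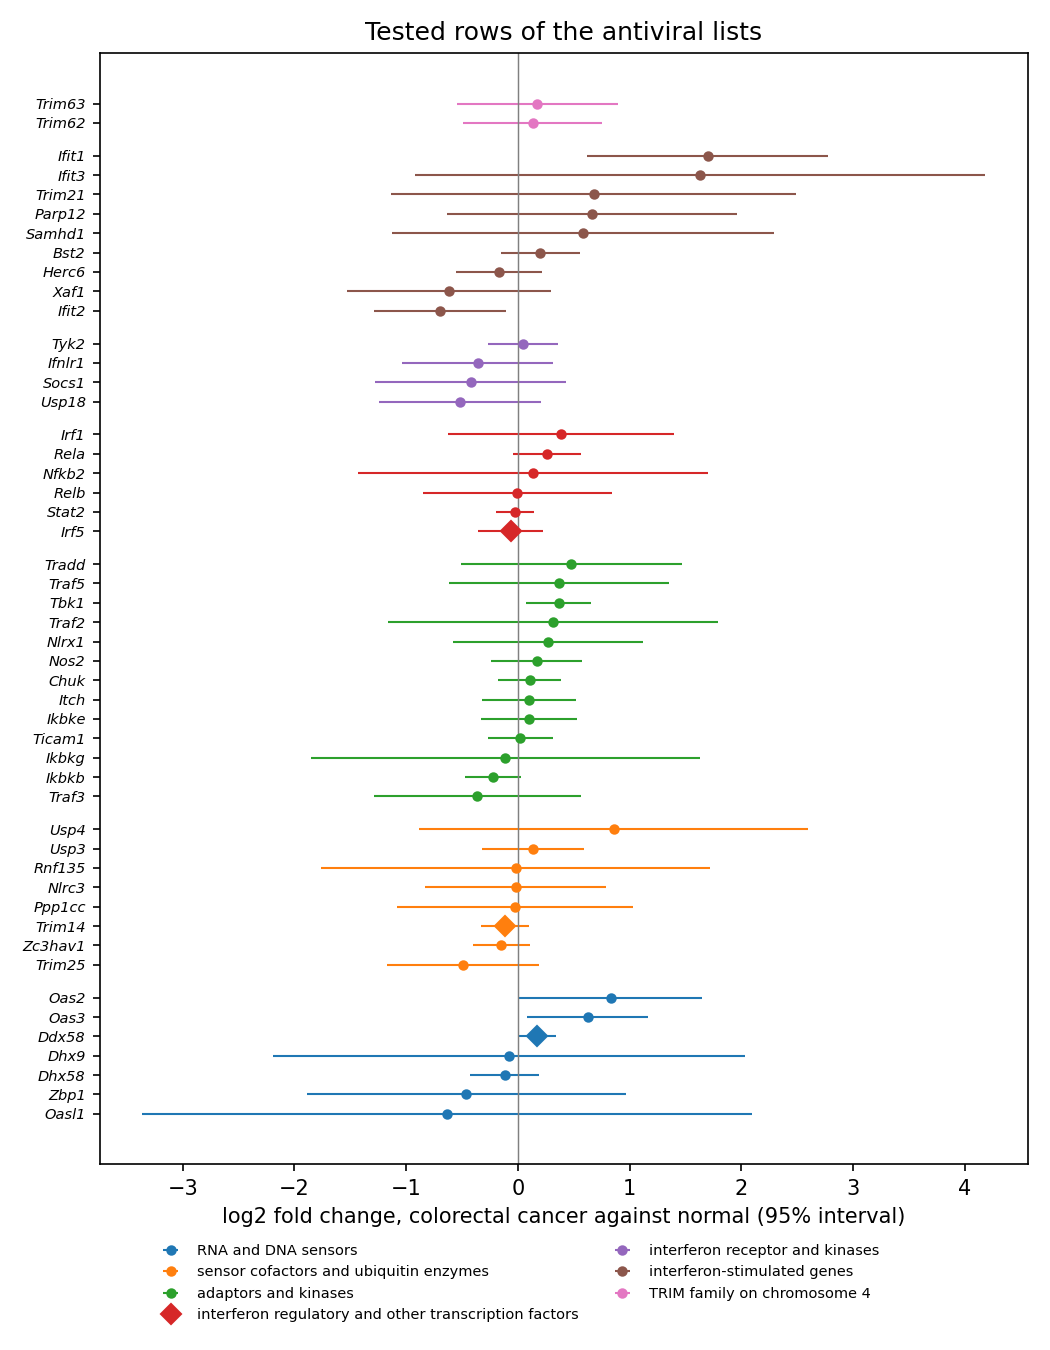
Log2 fold change of colorectal cancer against normal (horizontal axis) with 95% intervals for the tested rows of the antiviral lists that are reported by name, coloured by list, with diamonds for Ddx58, Irf5 and Trim14. The 3 diamonds lie at 0.17, -0.06 and -0.11 on the log2 scale, and no row passed the test over all rows.

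The nearest protein-coding neighbours, 3 on each side of each gene, show the local setting. Beside Ddx58, Aco1, an iron-regulatory aconitase, had 70.4 CPM in normal and 72.8 in cancer serum, Topors 105.1 and 106, and Ndufb6, of respiratory complex I, 23.8 and 24.4. Lingo2, a neuronal gene, was at 0. None of the tested neighbours of Ddx58 passed, where 2.02% of all tested rows did.

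Around Irf5, 2 neighbours fell, where 1.45% of all tested rows were called lower. They were the 2 called lower of 17 tested protein-coding rows within 1 Mb of Irf5. Over all protein-coding rows, 95 of 6946 tested were called lower. Tspan33 went from 469 to 161 CPM (log2 fold change -1.54, adjusted p = 0.00603 by edgeR), a call lost in 3 of 24 settings. Atp6v1f, a subunit of the proton pump of lysosomes, went from 376 to 268 CPM (log2 fold change -0.49, adjusted p = 0.0289 by edgeR), a call lost in 10 of 24 settings. Tnpo3, which overlaps the end of Irf5, had 183 and 196 CPM, and Kcp and Atp6v1fnb had 6 and 0 counts in all.

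Around Trim14, Hemgn, an erythroid nuclear factor, fell from 51.0 to 15.3 CPM (log2 fold change -1.74, adjusted p = 0.00603 by edgeR), a call lost in 3 of 24 settings. In the first 60 Mb of chromosome 4, 13 of 217 tested protein-coding rows were called lower, Hemgn included, and 1 higher. Nans, which shares exonic bases with Trim14, had 115 and 92.7 CPM (unadjusted p = 0.0228, adjusted p = 0.303 by edgeR). Anp32b had 412 and 400.3 CPM, Coro2a 165 and 162, and Tbc1d2 10.2 and 19.5 (adjusted p = 0.0760 by edgeR). Gabbr2, a neuronal receptor gene, had 56 counts in all. Whether the 3 sensing genes differ from their neighbours in fold change was not tested.

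**Figure D5:**
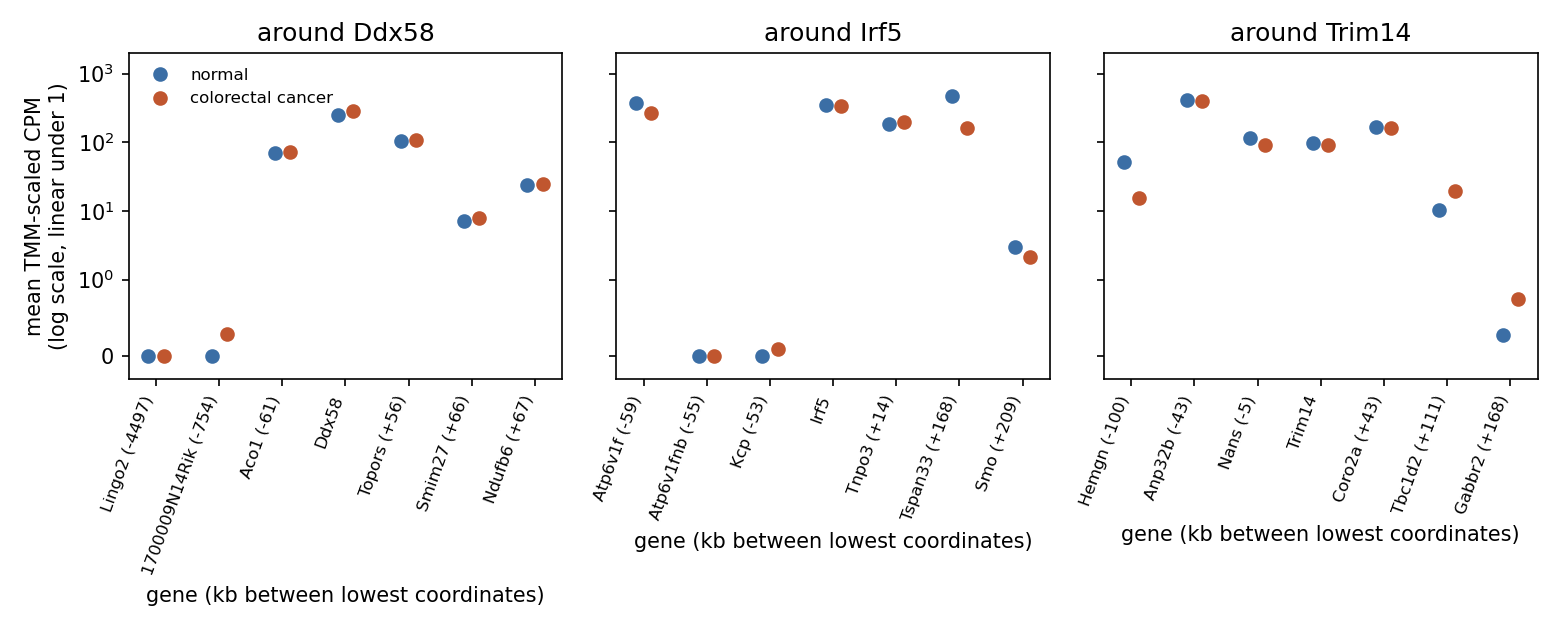
Mean TMM-scaled CPM (vertical axis, logarithmic above 1 and linear below) in normal (blue) and colorectal cancer (orange) libraries for Ddx58, Irf5, Trim14 and their nearest protein-coding genes, with the distance in kb between lowest coordinates in brackets. The points of the 3 genes nearly coincide, while Tspan33 beside Irf5 goes from 469 to 161 CPM and Hemgn beside Trim14 from 51.0 to 15.3 CPM.

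The rows whose pattern over the 11 libraries was most like each gene were sought by the root mean square difference of log2(CPM + 1) after centring each row. For Ddx58 these were Clpp (0.0616), Setdb1 (0.0837) and Pnrc1 (0.0887), for Irf5 Dnah1 (0.104), Slc25a20 (0.107) and Zfr2 (0.114), and for Trim14 Olfr427 (0.0873), Cdc42bpg (0.0896) and Slc12a7 (0.0924). The median over 7148 rows was 0.426, 0.466 and 0.429 for the 3 genes in that order. Among the 3 genes the difference was 0.218 for Ddx58 and Irf5, 0.236 for Ddx58 and Trim14 and 0.299 for Irf5 and Trim14. Counted from the likest of the 7148 rows, Irf5 and Trim14 had ranks 773 and 990 for Ddx58. Ddx58 and Trim14 had ranks 388 and 1315 for Irf5, and Ddx58 and Irf5 had ranks 760 and 1726 for Trim14.

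Markers of blood cells were read beside these values, since each of the 3 genes is used by several cell types. Of 10 B cell markers, which include cells that use IRF5, 6 were tested and none passed, and their summed level was 964 to 1481 CPM in normal and 1085 to 1199 in cancer serum. Pax5 led them at 725 and 716 CPM, while Ms4a1 was at 0. Of 10 monocyte markers 4 were tested and 1, Adgre4, rose, where 0.565% of all tested rows were called higher. Adgre4 went from 13.7 to 20.8 CPM (log2 fold change 0.60, adjusted p = 0.0385 by edgeR), a call lost in 15 of 24 settings. The sum of the monocyte markers was 19.3 to 29.6 CPM in normal and 29.0 to 38.2 in cancer serum. Csf1r, Ccr2 and Adgre1 were at 0. Of 10 neutrophil markers 2 were tested and none passed, with sums of 98.2 to 377 and 408 to 713 CPM that came mostly from Mmp8, while S100a8, S100a9 and Ly6g were at 0. The neutrophil sums were higher in all colorectal cancer libraries than in any normal one. Mmp8 went from 206 to 558 CPM (log2 fold change 1.44, adjusted p = 0.134 by edgeR). Its groups did not overlap, as in 3.64% of all tested rows.

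The sums of erythroid, platelet and T and NK cell markers were lower in all colorectal cancer libraries than in any normal one. Most of these sums came from Tspan33 and Tmod1 (erythroid), Gng11 and Itga2b (platelet), and Il7r and Cd3e (T and NK). Gng11 and Il7r did not pass (adjusted p = 0.0982 and 0.192 by edgeR). Groups did not overlap in 3.64% of all tested rows. Of 10 erythroid markers 4 were tested and 3 fell (Hemgn, Tspan33 and Tmod1, the last a call lost in 9 of 24 settings). Over all tested rows 1.45% were called lower. The marker lists were chosen with earlier results of these data known, so the calls in them are no independent support. The erythroid sums were 519 to 899 CPM in normal and 117 to 315 in cancer serum. Hbb-bs, Hbb-bt and Alas2 were at 0. Of 10 platelet markers 3 were tested and 1 fell, Itga2b (a call lost in 13 of 24 settings), with sums of 3623 to 5762 and 2021 to 2984 CPM and Pf4 and Ppbp at 0. Of 10 T and NK cell markers 6 were tested and 1 fell, Cd3e (a call lost in 2 of 24 settings), with sums of 831 to 1032 and 494 to 724 CPM and Nkg7 and Klrb1c at 0. Of 8 plasmacytoid dendritic cell markers 2 were tested and none passed, with sums of 39.3 to 69.6 and 53.3 to 76.3 CPM and Siglech at 0. Of 9 intestinal epithelial markers 3 were tested and none passed (sums 128 to 153 and 129 to 165 CPM, Epcam at 0), and of 8 liver markers 1 was tested and did not pass (sums 0.745 to 6.24 and 2.15 to 6.46 CPM). The part of these cell types in the values of Ddx58, Irf5 and Trim14 was not tested.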

How the data were processed

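Serum RNA was taken up in TRIzol before stranded total RNA library preparation, per the labels' protocols. The deposited files hold whole-number counts per gene symbol, judged unnormalized because totals differ between libraries. Trim Galore, HISAT2, StringTie and mm10 are named in the submitters' processing notes. For the counting step and annotation the sources used here give nothing. Of the 53546 rows, 0 named no gene, and 49972 matched a single GENCODE M21 position.

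Counts of 11 libraries, 6 normal and 5 colorectal cancer, were filtered (filterByExpr), TMM-scaled and tested with edgeR 4.0.16 (glmQLFit robust, glmQLFTest, R 4.3.3), with Benjamini-Hochberg adjustment over 9565 rows at 0.05. Intervals are 95%. Ratios were tested by two-sided exact permutation over 462 splits, which can give p = 0.00216 at the least. DESeq2 1.42.0, pandas 2.3.3 and Matplotlib 3.10.9 were also used, and the procedure was tested on simulated data. The alternatives were other scalings, filters and tools, the Olfr648 row or library sets, thinning to 2885958 counts, the replicate block, the repeated file and each library left out. Added after seeing the data was the set of low Olfr648 libraries.

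The members and lists were chosen with earlier results of these data known. Named were the 3 genes, up to 4 called genes per list and direction or else the 2 most abundant, 3 neighbours per side, 3 likest rows, and called or leading markers; 4 listed genes are counted in their lists and not reported by name here. The depth ran from 2889205 to 20774889 counts per library, and for a row at 0 throughout the limit is 0.0307 CPM (3 of 97690275 counts, the summed TMM-scaled totals), for counting error only. Promoter sequences are from RefSeq (GRCm38.p6). Log2 values and CPM were computed from the deposited counts.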

Additional observations from a re-analysis of the deposited data

Results flagged for a closer look

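A value that stood apart from the rest of its group was looked for in 94 groups of libraries, and 6 were found; chance flags about 1 in 20 groups. Normal replicate 4 stood apart in 3 of them: its log2 ratio of Ddx58 to Trim14 was 1.82 where the other 5 normal libraries lay between 1.14 and 1.39, its log2 ratio of Irf5 to Trim14 was 2.60 against 1.47 to 1.89, and Olfr427, a row that tracked Trim14, stood at 229 CPM against 313 to 359. In that order, the gap to the next value was 0.626, 0.627 and 0.643 of the group's range, little above the cut of 0.625. These 3 flags are not separate, since both ratios hold Trim14 and Olfr427 was picked for its likeness to Trim14 over the same libraries. Normal replicate 6 stood apart in 2. Stat2 was at 209.9 CPM there, against 253 to 268 in the others. Gng11, a platelet-rich gene, was at 4779 CPM against 2904 to 3310. Colorectal cancer replicate 3 had 2.02 CPM of Socs1, against 6.501 to 8.181 in the other 4 libraries of its group.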

How the results depend on the processing

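No pairing by replicate number was seen: same-numbered libraries' deviations correlated at -0.102 to 0.0513 over 5 pairs. Of 5 normal libraries, 1 matched its own number best. So few pairs cannot show that the libraries were not paired. With the replicate block the log2 fold changes were 0.19, -0.09 and -0.10 for Ddx58, Irf5 and Trim14, 6 rows were higher and 59 lower over all rows, 0 antiviral rows were called in either direction, and the log2 ratio differences were 0.28 (Ddx58 to Irf5), 0.29 (Ddx58 to Trim14) and 0.01 (Irf5 to Trim14).

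Of 24 settings each, 22 kept direction and call for Ddx58, 21 for Irf5 and 23 for Trim14. With Olfr648 left out and totals alone the values were 0.56, 0.33 and 0.29, 1383 of 8134 rows (17.0%) were higher and 10 of 47 antiviral rows (21.3%) were called higher; with totals alone Ddx58 was at -0.049, and 11 rows were higher and 1 lower. With the low Olfr648 libraries alone (1 colorectal cancer library, assumed to vary like the others) Irf5 was at 0.073, and 4 rows were higher and 4 lower. Rows higher and lower over all rows were 161 and 221 by DESeq2, 13 and 68 with the Olfr648 sets as a covariate and 34 and 27 in the high libraries, and 112 were higher with the repeated file kept.

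With each library left out, log2 fold changes ran from 0.14 to 0.20 for Ddx58, from -0.12 to 0.05 for Irf5 (0.046 without normal replicate 4) and from -0.17 to -0.07 for Trim14. Rows called higher ran from 16 (without colorectal cancer replicate 1 or 6) to 67, with 20 without normal replicate 2 or colorectal cancer replicate 4, 35 without normal replicate 6 and 27 without colorectal cancer replicate 2. Rows called lower ran from 89 (without colorectal cancer replicate 4) to 139. The ratio differences ran from 0.23 to 0.37 for Ddx58 to Trim14 (0.37, past the threshold, without normal replicate 4), from 0.15 to 0.28 for Ddx58 to Irf5 and from -0.00095 (without colorectal cancer replicate 3) to 0.23 for Irf5 to Trim14. The cause of these differences was not tested. In the 6 high libraries a ratio cannot reach an exact permutation p below 0.0667.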
